A study of Mus musculus with 2 samples.

Results

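The insulin-like growth factor (IGF) ligand Igf1, its receptor Igf1r and the binding-protein genes Igfbp2, Igfbp3, Igfbp4, Igfbp5 and Igfbp7 were followed across the cell classes of the mouse dentate gyrus. These 7 genes were chosen by name, as members of 1 signalling system, from 17592 gene columns, and all 7 were present in the data. The dentate gyrus, a part of the hippocampus, was microdissected from C57BL/6 mice of 16 months (old) and 3 months (young), and dissociated with papain. Living cells were sorted as negative for propidium iodide and profiled with 10x Genomics 3′ chemistry (v3), which counts mRNA molecules by unique molecular identifiers (UMIs) near their 3′ ends. Each age had 1 library, and neither the number of animals behind a library nor their sex is given in the sources used here.

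IGF-1 is a secreted peptide that binds the receptor tyrosine kinase IGF1R, which signals through insulin receptor substrates to PI3-kinase and AKT. The IGF-binding proteins are secreted, hold most IGF outside cells, and limit or prolong its access to the receptor, and proteases that cut them release it. In the brain IGF-1 supports the growth of neurons and oligodendrocytes, and IGF1R on the endothelium of blood vessels binds circulating IGF-1.

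The old library held 1430 cells and 7451506 UMIs, and the young library 2463 cells and 16217559 UMIs. Of the old library's barcodes, 1401 (98.0%) also occurred in the young library. Clustering named 1066 old and 1073 young cells after brain cell classes, and 1040 barcodes carried the same class in both, which is 97.6% of the named old cells and 96.9% of the named young cells. The brain cells of both libraries are therefore mostly the same barcodes, so that nothing is read about age, and the values below are from the young library unless the old library is named. Another 289 old and 1315 young cells lay in 7 clusters whose median mitochondrial share was below 1%, and 75 old and 75 young cells lay in a cluster that stayed unnamed. No cluster was named after the mature granule neuron, the main neuron of this tissue, so the 7 genes are not described there.

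The classes were rebuilt here from marker genes and are called "-like" for that reason. The young library held 356 microglia-like, 304 astrocyte-like, 129 endothelial-like, 79 mature oligodendrocyte-like, 70 pericyte-like, 58 neuroblast-like, 48 oligodendrocyte precursor-like, 14 smooth muscle-like, 10 perivascular macrophage-like and 5 B cell-like cells, in which none of the 7 genes had a UMI. All 10 markers of the endothelial, pericyte, smooth muscle and perivascular macrophage lists marked their class. The neuroblast-like class also held a sub-cluster of 10 cells that met 9 of 10 Cajal-Retzius markers. Median depth ran from 1912 UMIs a cell in astrocyte-like cells to 9609 in mature oligodendrocyte-like cells. A level is the summed UMIs of a gene over a class per 10,000 UMIs of that class, given with an exact 95% Poisson interval. Every interval covers counting error only, not the spread between cells or animals, and with 1 library per age no test was made.

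By GENCODE M21 on GRCm38, Igf1 lies on chromosome 10 (87858265 to 87937042, plus strand), Igf1r on chromosome 7 (67952827 to 68233668, plus), Igfbp3 on chromosome 11 (7206086 to 7213923, minus), Igfbp4 on chromosome 11 (99041244 to 99054392, plus) and Igfbp7 on chromosome 5 (77349240 to 77408041, minus). Igfbp2 (72824503 to 72852474, plus) and Igfbp5 (72857932 to 72874884, minus) are neighbours on chromosome 1, with their 3′ ends facing each other across 5457 bases. All 7 are protein-coding. Of the 31-base words in the last 500 bases of their transcripts, none occurred in a transcript of another gene for 6 members. For Igfbp4 12.1% did, in transcripts of 2005 other genes, and their part in its counts was not tested. On the other strand, Igf1os overlaps Igf1 by 5117 bases and Gm34648 overlaps Igfbp7 by 7085 bases. The 3′ end of Igfbp7 overlaps that of Polr2b, an RNA polymerase II subunit on the other strand, by 85 bases, and the strand setting of the counting is not given in the sources used here. Polr2b had 2, 8 and 16 UMIs in smooth muscle-like, pericyte-like and endothelial-like cells, where Igfbp7 had 417, 949 and 735.

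Promoter sequence is shown for 2 pairs of members, Igfbp7 with Igf1r and Igfbp2 with Igfbp5, because the first pair reached its highest levels in vascular classes and the second in astrocyte-like cells. Each line gives the 250 bases before the RefSeq transcription start on GRCm38.p6, for Igfbp2 the first of 2 such starts, 5′ to 3′ on the gene's own strand, with GGGCGG, the GC box that Sp-family factors bind, in capitals in either orientation.
Igfbp7, chr5:77408046-77408295, minus strand: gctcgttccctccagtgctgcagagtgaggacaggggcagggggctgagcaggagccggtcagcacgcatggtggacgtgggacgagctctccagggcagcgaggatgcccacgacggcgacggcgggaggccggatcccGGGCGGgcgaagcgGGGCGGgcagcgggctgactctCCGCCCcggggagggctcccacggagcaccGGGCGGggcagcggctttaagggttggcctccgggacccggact
Igf1r, chr7:67952007-67952256, plus strand: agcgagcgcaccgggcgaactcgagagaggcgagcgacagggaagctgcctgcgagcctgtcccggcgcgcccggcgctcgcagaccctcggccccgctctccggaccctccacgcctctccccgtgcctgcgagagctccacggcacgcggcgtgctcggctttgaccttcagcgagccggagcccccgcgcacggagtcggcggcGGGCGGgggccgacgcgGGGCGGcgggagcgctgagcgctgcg
Igfbp2, chr1:72824230-72824479, plus strand: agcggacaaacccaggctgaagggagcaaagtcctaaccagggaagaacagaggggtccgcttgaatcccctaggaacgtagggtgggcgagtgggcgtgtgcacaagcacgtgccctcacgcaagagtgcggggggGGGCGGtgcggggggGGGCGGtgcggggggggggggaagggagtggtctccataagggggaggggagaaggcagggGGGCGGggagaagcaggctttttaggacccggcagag
Igfbp5, chr1:72874866-72875115, minus strand: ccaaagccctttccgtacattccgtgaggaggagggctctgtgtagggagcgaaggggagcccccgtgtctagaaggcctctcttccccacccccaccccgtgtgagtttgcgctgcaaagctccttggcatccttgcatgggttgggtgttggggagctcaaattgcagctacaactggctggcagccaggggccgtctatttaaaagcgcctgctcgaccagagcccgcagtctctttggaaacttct
GGGCGG was found 4 times before Igfbp7, 2 times before Igf1r, 3 times before Igfbp2 and not before Igfbp5. It was not found before the second start of Igfbp2 (chr1:72825137-72825386, 56.4% G or C), and 32.7% of 32851 promoter windows of this length held it. TATAAA, the core of the TATA box, was searched on both strands in the same way, was found in none of these 4 windows and stood in 12.4% of all windows. The CArG box, the site of serum response factor at many smooth muscle genes, was in none of them and in 1.47% of all windows. The windows of Igf1r and Igfbp7 were 77.6% and 74.0% G or C, and those shown for Igfbp2 and Igfbp5 67.2% and 58.8%, against a median of 52.4% over all windows. Those of Igfbp3, Igfbp4 and Igf1, whose sequences are not shown, were 73.2%, 69.2% and 52.8% G or C. These matches describe letters and not bound sites.

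Igf1, the ligand, was concentrated in perivascular macrophage-like cells, the macrophages that line brain vessels. The 10 cells held 12 Igf1 UMIs, a level of 2.62 (1.35 to 4.57). The transcript was seen in 7 of the 10 cells, with 3 UMIs in each of 2 cells, 2 in 1 cell and 1 in each of 4 cells. Microglia-like cells, the resident macrophages of brain tissue, had 1 UMI over 356 cells and 2864204 UMIs, a level of 0.00349. The ratio of perivascular macrophage-like to microglia-like cells was 356 (79.2 to 3272) in the old library, where microglia-like cells had 2 UMIs, and 750.0 (111 to 32062) in the young library, so its size rests on those 1 or 2 counts. Astrocyte-like cells had 2 UMIs, both in 1 cell, and 1 UMI in the old library, with ratios of 221 (32.6 to 9427) old and 118 (26.4 to 1089.9) young, and the 6 other classes with at least 10 cells had none. A count of 0 allows a level of up to 0.0421 in mature oligodendrocyte-like cells and up to 0.0654 in endothelial-like cells. In the share of cells with a UMI, 70.0% of perivascular macrophage-like cells at a median of 3664 UMIs stood against 0.281% of microglia-like cells at a median of 8004 UMIs.

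The macrophage label was checked against both marker lists. All 10 perivascular macrophage markers summed to a level of 109 in the perivascular macrophage-like cells and to 1.47 in microglia-like cells, while the microglial list summed to 221 and to 421. Several of the microglial markers, such as Csf1r and the C1q genes, are known from both kinds of macrophage. With each cell thinned to 1000 UMIs, Igf1 was seen in 3 of 11 old and 0 of 10 young perivascular macrophage-like cells. In the old library as a whole 8 of 11 such cells had Igf1, with 12 UMIs in all.

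**Figure D1:**
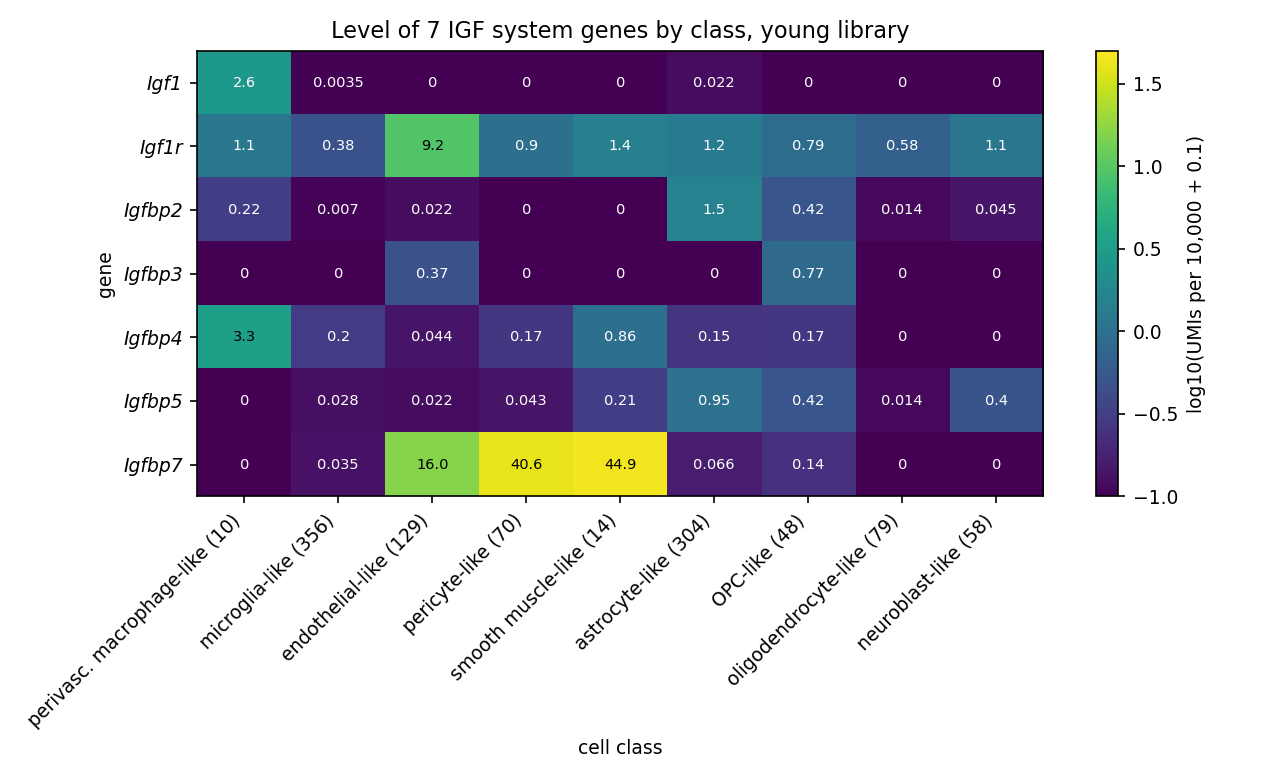
Level of each of the 7 genes (rows) in 9 cell classes of the young library (columns, with cells in parentheses), as UMIs per 10,000 in each box and as the log10 of that level plus 0.1 in colour. Along each row, Igf1 and Igfbp4 peak in perivascular macrophage-like cells, Igf1r in endothelial-like cells, Igfbp2 and Igfbp5 in astrocyte-like cells, Igfbp3 in oligodendrocyte precursor-like cells and Igfbp7 in smooth muscle-like and pericyte-like cells.

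Igf1r, the receptor, had UMIs in all 9 classes with at least 10 cells and was highest in endothelial-like cells, the lining of blood vessels. Endothelial-like cells held 423 of its 795 UMIs in those classes, at a level of 9.22 (8.36 to 10.1). Per cell the level ran from 0 over a median of 9.23 to 45.1 among the 129 endothelial-like cells. The 8 other classes lay between 0.384 in microglia-like cells and 1.40 in smooth muscle-like cells, so no other class came near the endothelial interval. The part of free RNA in these lower levels was not tested. The next class with at least 20 cells was the astrocyte-like class at 1.18 (0.969 to 1.43), and the endothelial level was 7.80 times as high (6.29 to 9.73).

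Below the endothelium the order of Igf1r levels was shallow. Astrocyte-like, neuroblast-like, pericyte-like, oligodendrocyte precursor-like and mature oligodendrocyte-like cells followed at 1.18, 1.05, 0.899, 0.794 and 0.576, and no neighbours in that order differed beyond counting error. Mature oligodendrocyte-like cells were 1.5 times as high as microglia-like cells (1.02 to 2.16). In the old library this ratio was 1.42 (0.980 to 2.01), which is not beyond counting error. The ends of the run did differ, since astrocyte-like over mature oligodendrocyte-like cells gave 2.05 (1.42 to 3.02), and 1.89 (1.32 to 2.76) in the old library. Astrocyte-like over microglia-like cells gave a ratio of 3.08 (2.34 to 4.06). Endothelial-like cells were 10.3 times as high as pericyte-like cells (6.62 to 16.7), the cells that wrap capillaries. The 10 endothelial markers summed to a level of 287 in the endothelial-like class and of 9.12 in the pericyte-like class.

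One astrocyte-like sub-cluster stood apart in Igf1r. It held 10 cells led by Flt1, Egfl7 and Slco1a4, genes of endothelium, and had an Igf1r level of 4.88, against 1.78 or less in the other astrocyte-like sub-clusters. Endothelial markers summed to 36.2 in these 10 cells and to 1.67 over all astrocyte-like cells, and microglial markers to 37.0 and 11.6, and their part in the Igf1r level was not tested. Another sub-cluster of 7 cells had microglial markers at 274 and astrocyte markers at 98.5, with Igf1r at 1.13.

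Set beside all genes, the endothelial step of Igf1r was steep. A gene was called class-led where its leading class was at least 4 times the next, with 0.1 added to both levels, 7 classes of at least 20 cells and at least 100 UMIs. Of the 4 members with enough UMIs 1 was called, namely Igf1r at 7.27, and 9.24% of the 7914 genes tested were called. Igf1r ranked 75 among the 895 genes led by endothelial-like cells. Igfbp2 at 3.01, Igfbp7 at 2.53 and Igfbp5 at 2.0 were below the threshold, and the median over all genes tested was 1.29. In the old library 740 of 8191 genes were called (9.03%), with Igf1r at 7.59 and also Igfbp2 at 4.28.

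Igfbp7, a secreted binding protein with low affinity for IGF that is laid down in the vessel wall, was the vascular member. Its level was 44.9 (40.7 to 49.4) in smooth muscle-like cells, 40.6 (38.1 to 43.3) in pericyte-like cells and 16.0 (14.9 to 17.2) in endothelial-like cells. Smooth muscle-like over pericyte-like cells gave a ratio of 1.10 (0.982 to 1.24), which does not differ beyond counting error. Pericyte-like cells were 2.54 times as high as endothelial-like cells (2.30 to 2.80). The next class, oligodendrocyte precursor-like cells, had 8 UMIs and a level of 0.242 in the old library and 5 UMIs and a level of 0.142 in the young library. Endothelial-like cells were 66.2 times as high as these precursor-like cells (33.4 to 154) in the old library and 113 times as high (48.2 to 349) in the young library.

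Igfbp7 was seen in nearly every mural cell. All 14 smooth muscle-like cells had it, from 10.3 over a median of 40.5 to 98.7 UMIs per 10,000, as did 95.7% of pericyte-like and 93.0% of endothelial-like cells. It was not seen in 79 mature oligodendrocyte-like cells at a median of 9609 UMIs, nor in 58 neuroblast-like or 10 perivascular macrophage-like cells. Igfbp7 also stood in the top 10 by fold in the pericyte-like and the smooth muscle-like cluster, although all members were kept out of the genes used for clustering. The pericyte-like class carried markers of other cells, with the 10 astrocyte markers at a summed level of 74.9 and the 10 microglial markers at 33.4. Astrocyte-like and microglia-like cells themselves had Igfbp7 at 0.0663 and 0.0349.

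**Figure D2:**
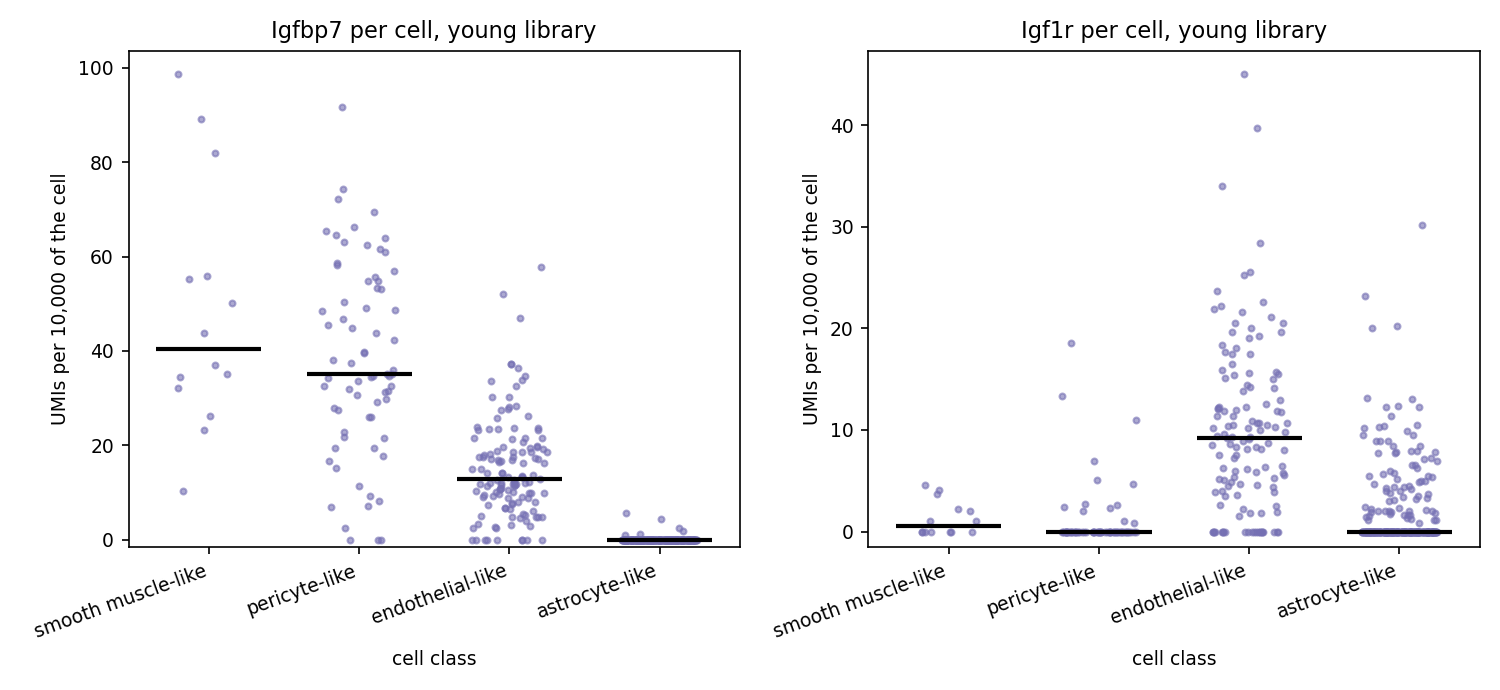
Each point is 1 young cell, with UMIs per 10,000 of that cell on the vertical axis for Igfbp7 (left) and Igf1r (right), 4 classes on the horizontal axis and a black line at the median. The median for Igfbp7 is 40.5 in smooth muscle-like, 35.1 in pericyte-like and 12.8 in endothelial-like cells, while for Igf1r it is 9.23 in endothelial-like cells and 0 in pericyte-like and astrocyte-like cells.

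Within the endothelium the receptor and its binding proteins were distributed unequally. The 3 sub-clusters compared here were drawn after the data were seen, again without the members. One of 40 cells was led by Gkn3, Mgp, Vegfc and Hey1, genes of arterial endothelium, one of 32 cells by Vcam1, Ackr1 and Icam1, adhesion genes of venous and activated endothelium, and one of 57 cells by C1qa and C1qb, genes of microglia, with Car4 and Ctla2a, genes of capillary endothelium. Igf1r was 12.5 in the C1qa group, 7.82 in the Vcam1 group and 5.71 in the Gkn3 group. The C1qa group was 2.20 times as high as the Gkn3 group (1.73 to 2.81) and 1.60 times as high as the Vcam1 group (1.22 to 2.13). The Vcam1 group over the Gkn3 group gave 1.37 (0.986 to 1.89), which does not differ beyond counting error.

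Igfbp7 was instead highest in the Gkn3 group, at 21.6, with 13.8 in the Vcam1 group and 12.6 in the C1qa group. The C1qa group over the Vcam1 group gave 0.915 (0.735 to 1.15), which does not differ beyond counting error. The Gkn3 group was 1.71 times as high as the C1qa group (1.45 to 2.01). Igfbp3 followed Igfbp7 here, since 15 of its 17 endothelial UMIs lay in the Gkn3 group and 2 in the C1qa group. The 10 microglial markers summed to 21.1 in the C1qa group, 2.42 in the Vcam1 group and 1.78 in the Gkn3 group, while endothelial markers summed to 289, 289 and 282. Without the C1qa group the endothelial level of Igf1r was 6.45. Microglia-like cells themselves had 0.384, below every endothelial sub-cluster.

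**Figure D3:**
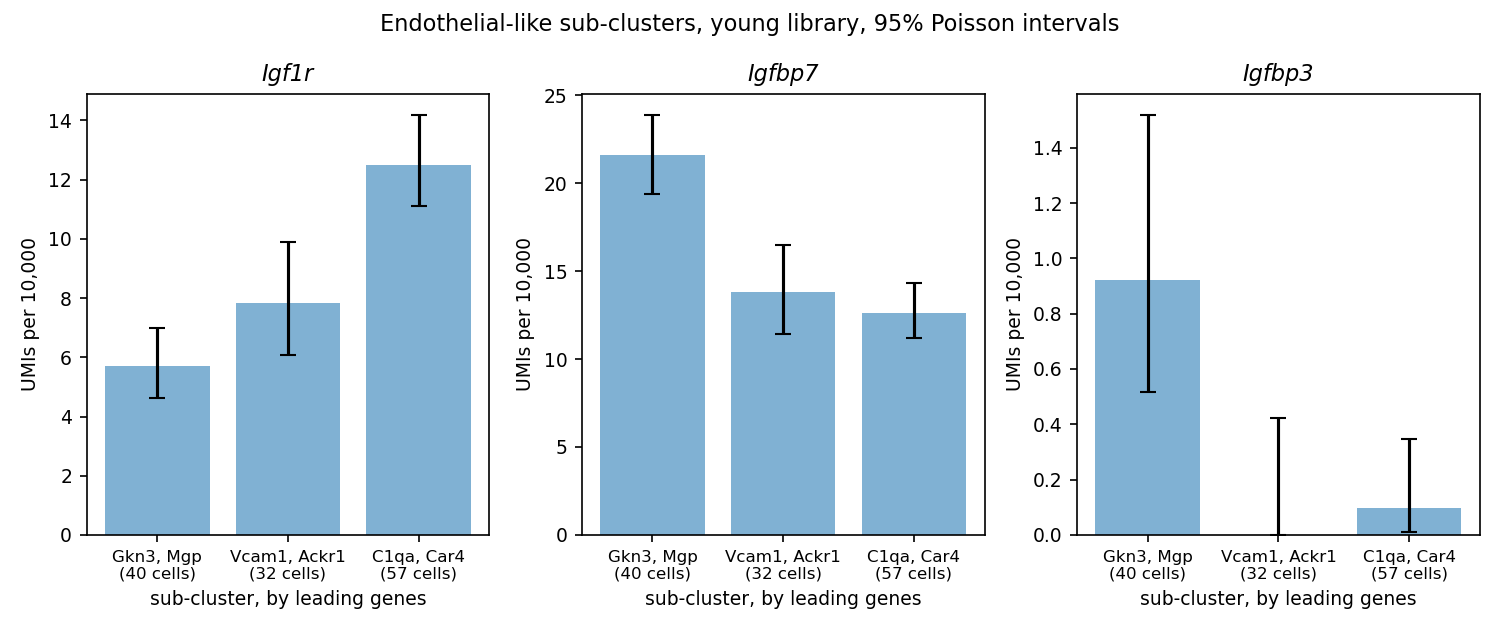
Bars give the UMIs per 10,000 of Igf1r, Igfbp7 and Igfbp3 in 3 endothelial-like sub-clusters of the young library, with the leading genes under each bar and exact 95% Poisson intervals as error bars. Igf1r is highest at 12.5 in the C1qa group, whose first leading genes are microglial, whereas Igfbp7 at 21.6 and Igfbp3 at 0.921 are highest in the Gkn3 group.

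Receptor and binding-protein transcripts were each seen in most endothelial-like cells, and therefore often in the same ones. Igf1r and Igfbp7 were both seen in 103 of 129 old and 99 of 129 young endothelial-like cells. Among young endothelial-like cells Igfbp7 was found in 92.5% of those with Igf1r, at a median of 3307 UMIs, and in 95.5% of those without, at a median of 2287 UMIs. In pericyte-like cells 13 of 70 young cells held both.

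Igfbp2 was led by astrocyte-like cells among the named classes. It encodes a binding protein found at high levels in the developing brain and in cerebrospinal fluid. Astrocyte-like cells had 134 of its UMIs in 60 of 304 cells, a level of 1.48 (1.24 to 1.75), with single cells from 0 to 13.6 UMIs per 10,000. Oligodendrocyte precursor-like cells followed with 9 UMIs and a level of 0.272 in the old library and 15 UMIs and a level of 0.425 in the young library. Astrocyte-like cells were 5.48 times as high as the precursor-like cells (2.81 to 12.2) in the old library and 3.48 times as high (2.04 to 6.39) in the young library. Every other class had at most 2 UMIs. The share of cells with Igfbp2 was 19.7% in astrocyte-like cells, at a median of 1912 UMIs, against 0.562% in microglia-like cells at a median of 8004 UMIs.

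The highest Igfbp2 cells lay outside the named classes. A sub-cluster of 3 cells in each library within the unnamed cluster, singled out after its values were seen, met 8 of 8 choroid plexus markers, and the choroid plexus is the tissue that makes cerebrospinal fluid. Its cells held 27, 16 and 12 Igfbp2 UMIs in the old library and 26, 14 and 11 in the young library. The young cells reached a summed level of 21.7, and beside those counts stood 2222, 1398 and 3039 UMIs of Ttr, the best-known marker of that tissue. In the 7 clusters of low mitochondrial share Igfbp2 ran from 0.199 to 1.16 and was seen in 11.5% to 52.2% of cells.

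Igfbp5, whose product binds IGF and extracellular matrix, shared its leading class among the named classes with its neighbour Igfbp2. In the 7 clusters of low mitochondrial share Igfbp5 ran from 0 to 0.806 and was seen in 0% to 33.5% of cells. Astrocyte-like cells had 86 UMIs in 49 of 304 cells, a level of 0.95 (0.760 to 1.17). Oligodendrocyte precursor-like cells had 0.425 and neuroblast-like cells 0.403, which did not differ from each other beyond counting error, and astrocyte-like cells were 2.23 times as high as the precursor-like cells (1.28 to 4.16). In the old library this ratio was 1.60 (0.94 to 2.88), which is not beyond counting error. The share of cells with Igfbp5 was 16.1% in astrocyte-like cells, at a median of 1912 UMIs, against 1.27% in mature oligodendrocyte-like cells at a median of 9609 UMIs. With each cell weighted alike, the log2 ratio of astrocyte-like to precursor-like cells was 0.30, against 1.00 from summed counts, and 1 precursor-like cell reached 23.6 UMIs per 10,000.

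Igfbp5 in the neuroblast-like class came from few cells. Only 4 of 58 cells had it, with 12, 3, 2 and 1 UMIs, and 15 of the 18 UMIs lay in a sub-cluster of 3 cells led by Dlx6os1, Dlx1 and Gad2, which are genes of GABAergic interneurons. The 2 cells with 12 and 3 UMIs each had 7 UMIs of Dlx1. The other 55 neuroblast-like cells carried 3 UMIs in all.

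The neighbours Igfbp2 and Igfbp5 were seen together in 16 of 311 old and 17 of 304 young astrocyte-like cells. Igfbp5 was found in 28.3% of young astrocyte-like cells with Igfbp2, at a median of 4604 UMIs, and in 13.1% of those without it, at a median of 1668 UMIs, so depth moved with this difference and its part was not tested. Their sub-clusters differed. In a group of 71 cells led by Fjx1, Slc6a11 and Tril, Igfbp2 was 1.92 and Igfbp5 0.330, and in a group of 25 cells led by Prdx1, Chchd10 and S100b, Igfbp2 was 1.53 and Igfbp5 1.80.

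Igfbp3, the main carrier of IGF in blood, was seen in 2 of the 9 classes with at least 10 cells, the fewest of the 7 genes. Oligodendrocyte precursor-like cells had 27 UMIs in 17 of 48 cells, a level of 0.766 (0.505 to 1.11), and endothelial-like cells 17 UMIs in 9 of 129 cells, a level of 0.371 (0.216 to 0.593). The precursor-like level was 2.07 times the endothelial one (1.09 to 4.04). Without the endothelial sub-cluster led by C1qa the endothelial level was 0.601 and the ratio 1.27 (0.654 to 2.58), no longer beyond counting error. No cell of the other 7 classes had a UMI, among them 356 microglia-like cells at a median of 8004 UMIs, which allows a share of cells with a UMI of up to 0.843% there. Mature oligodendrocyte-like cells, the class that precursors form, also had no UMI. The precursor-like level was at least 18.2-fold higher when 3 counts are taken as the floor of the whole mature class, and the exact 95% lower limit of the ratio, which counts the error of both classes, was 13.8.

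Precursor-like cells with Igfbp3 mostly held 1 UMI, and 1 cell held the highest count of 4. In endothelial-like cells the highest count was also 4. At 1000 UMIs a cell Igfbp3 was seen in 3 of 47 precursor-like cells (6.38%) and 5 of 123 endothelial-like cells (4.07%).

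Igfbp4, an inhibitory binding protein that is cut by the protease PAPP-A, peaked in perivascular macrophage-like cells as Igf1 did. These 10 cells had 15 UMIs, a level of 3.27 (1.83 to 5.40), with 4, 4, 3, 2, 1 and 1 UMIs in 6 cells. Smooth muscle-like cells had 8 UMIs, all in 3 of 14 cells, a level of 0.861 (0.372 to 1.70). Perivascular macrophage-like cells were 3.80 times as high as smooth muscle-like cells (1.51 to 10.3) and 16.7 times as high as microglia-like cells (8.79 to 30). Microglia-like, pericyte-like, oligodendrocyte precursor-like and astrocyte-like cells had 0.196, 0.171, 0.170 and 0.155, with no neighbours differing beyond counting error. Mature oligodendrocyte-like and neuroblast-like cells had no UMI. Igf1 and Igfbp4 were both seen in 5 of 11 old and 4 of 10 young perivascular macrophage-like cells.

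The old library, which shares most of these barcodes, gave levels close to those of the young library. Igf1r in endothelial-like cells was 9.11 in the old and 9.22 in the young library. Igfbp7 in pericyte-like cells was 43.0 in the old and 40.6 in the young library, and Igf1 in perivascular macrophage-like cells was 2.27 in the old and 2.62 in the young library. Of 32 pairs of member and class with over 3 UMIs in either library, the old level lay inside the young interval in 30. Both exceptions were Igfbp7 outside the vessel wall, with 0.0861 in old and 0.0349 in young microglia-like cells and 5 UMIs in old and 0 in young mature oligodendrocyte-like cells.

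Cell by cell, the 1040 barcodes of the same class in both libraries held 6577068 UMIs in the old and 5898807 in the young library, a ratio of 1.11. For Igf1r these were 849 old and 771 young UMIs, a ratio of 1.10, and for Igfbp7 2379 old and 2109 young UMIs, a ratio of 1.13. The count was identical in both libraries in 84.1% of the 1040 barcodes for Igf1r and in 82.8% for Igfbp7. Barcodes without a UMI of the gene in either library count as identical here. Among endothelial-like cells, Igf1r was identical in 59 of 126 and Igfbp7 in 49 of 126. Igfbp7 was identical in 17 of 67 pericyte-like and 1 of 14 smooth muscle-like cells. In microglia-like cells, where both genes were low, Igf1r was identical in 315 of 350 and Igfbp7 in 328 of 350.

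**Figure D4:**
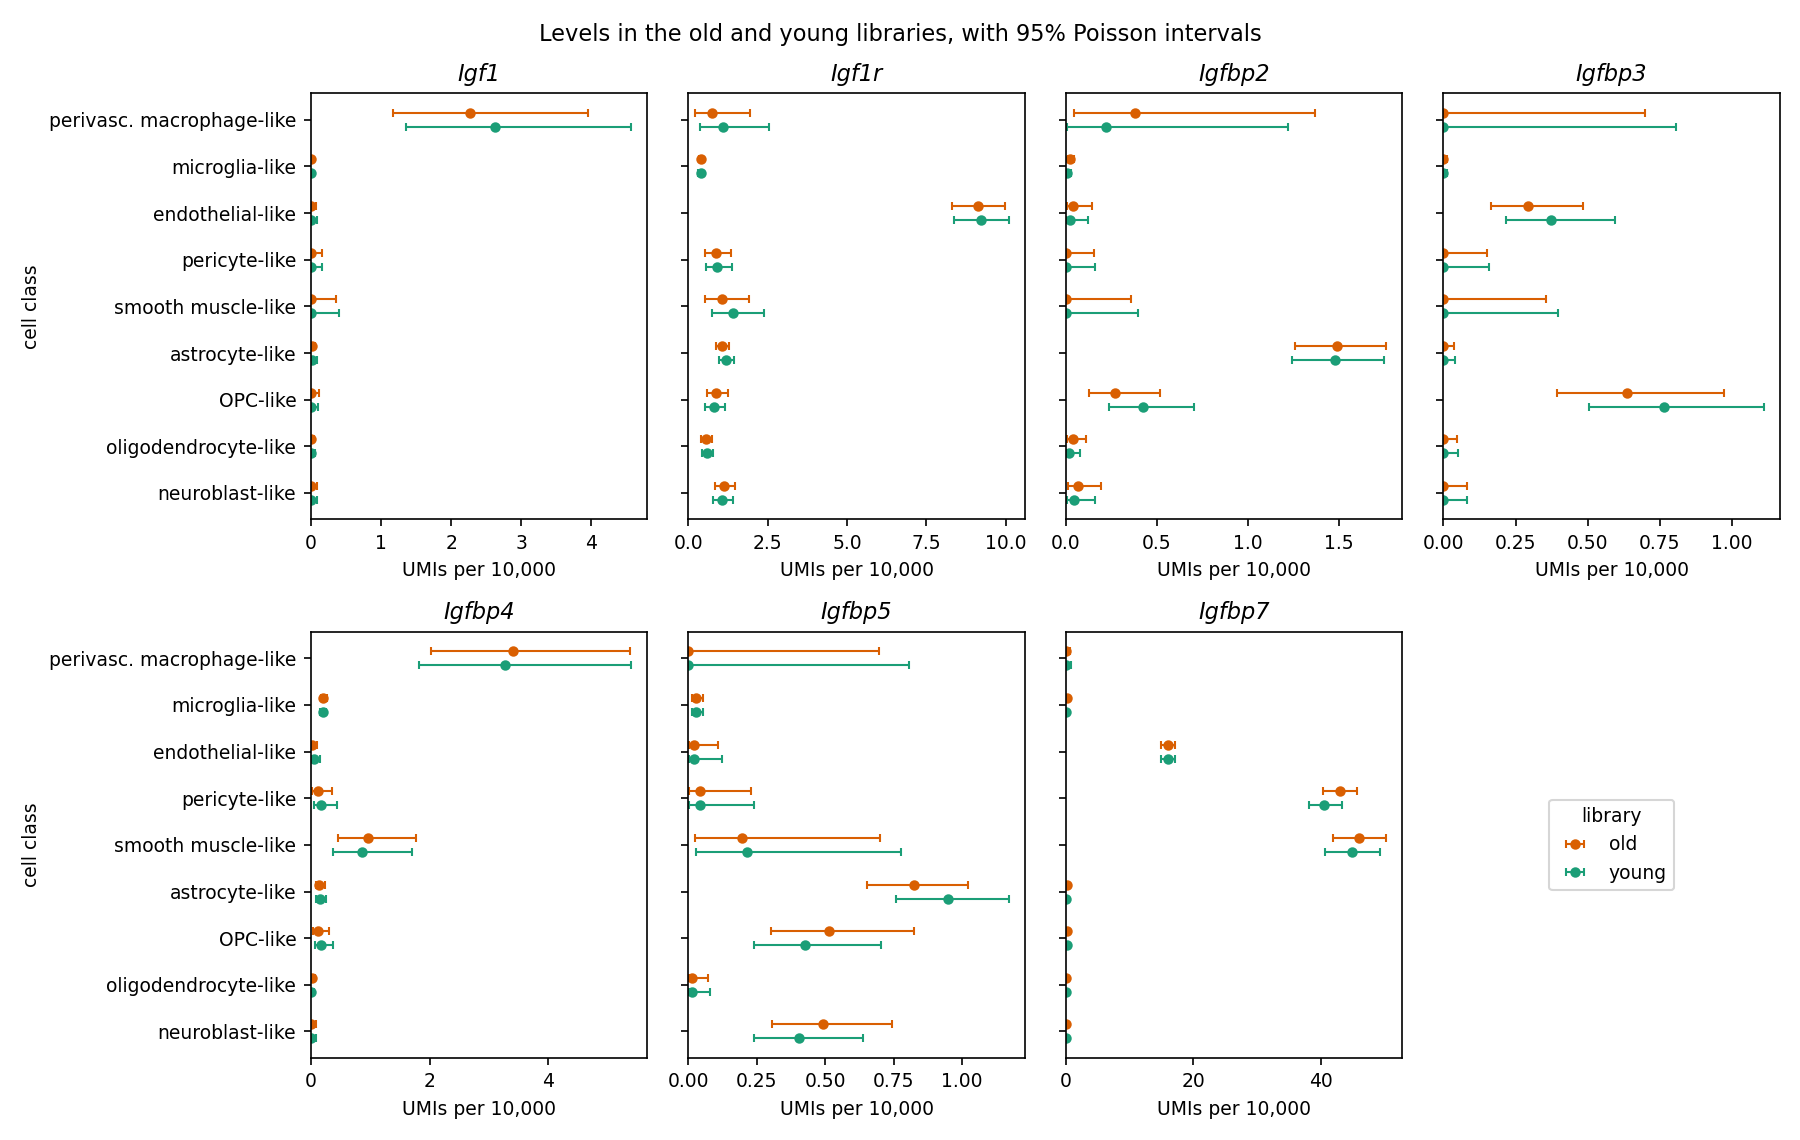
Points give the level of each gene in UMIs per 10,000 (horizontal axes, each with its own range) for 9 classes, with the old library in orange above the young library in green and exact 95% Poisson intervals as bars. The old and young points of a class lie close together, with Igf1r in endothelial-like cells at 9.11 and 9.22.

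Depth differed between classes, so detection was compared after thinning each cell to 1000 UMIs and leaving out shallower cells. Igf1r was then seen in 61.0% of 123 endothelial-like cells (51.8 to 69.6, Clopper-Pearson), 11.4% of astrocyte-like, 7.35% of pericyte-like and 2.54% of microglia-like cells, against 82.9%, 27.6%, 18.6% and 24.2% before thinning. Igfbp7 was seen in 92.9% of smooth muscle-like, 92.6% of pericyte-like and 75.6% of endothelial-like cells at that depth, and in 0 of 354 microglia-like cells. Igfbp2 reached 9.89% and Igfbp5 6.84% of astrocyte-like cells, and neither exceeded 6.38% elsewhere among classes with at least 20 cells. The thinning left out 41 of 304 astrocyte-like and 6 of 129 endothelial-like young cells.

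The genes most like each member across the 7 classes with at least 20 cells were named by Pearson's r of log2 levels, as a description over 7 points whose cells come from 1 library. For Igf1r these were Ifnar1 (0.983), a receptor chain for type I interferon, Egfl7 (0.981), a secreted endothelial factor, and 1110034G24Rik (0.978). For Igfbp7 they were Car4 (0.998), Foxc1 (0.994) and Mgp (0.993), which encode a carbonic anhydrase, a transcription factor of mural cells and a matrix inhibitor of calcification. Igfbp2 was followed by Rfx4 (0.997), Gabrg1 (0.995) and Nim1k (0.992), and Igfbp5 by Gm3764 (0.993), Mmd2 (0.992) and Gpm6a (0.991), all led by astrocyte-like cells. Igfbp3 was followed by 4430402I18Rik (0.979), Sh3bp4 (0.970) and Slc1a1 (0.968), and Igfbp4 by Ncstn (0.980), Cd302 (0.975) and Suclg2 (0.970). These values rest on few counts, since Igfbp3 had 44 UMIs, in only 2 of the classes, and Igfbp4 had 82. Igf1 had 3 UMIs in these classes, too few for the measure to mean anything, and its nearest genes are not listed.

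Of 34 other genes of the pathway looked up, 29 were in the table and 19 had at least 50 UMIs in these classes. No class led them as a group, since neuroblast-like and pericyte-like cells led 5 each, astrocyte-like and endothelial-like cells 3 each, mature oligodendrocyte-like cells 2 and microglia-like cells 1. Over all genes tested, these classes in that order led 19.4%, 12.3%, 15.6%, 11.3%, 10.7% and 14.3%. Oligodendrocyte precursor-like cells, not among the leading classes here, led 16.3%. Whether the pathway counts differ from these shares was not tested. The leads of Irs2, Pik3ca, Pik3r1, Pdpk1, Akt1, Foxo1, Foxo3, Mtor and Rps6kb1 were not beyond counting error. The median ratio of leading to next class was 2.10 for 3 other ligand, receptor and binding-protein genes and 1.33 for 15 signalling genes, beside 1.29 over all genes tested. These pathway genes entered from 50 UMIs and all genes tested from 100 UMIs, so the medians are not strictly alike. The 3 genes were Insr at 1.73, Igf2r at 2.10 with 55 UMIs, and Igfbpl1, a marker used to name the neuroblast-like class, at 198. Ins1, Insrr, Igfbp1, Igfbp6 and Igfals were not analysed here.

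Among ligands and receptors, Igf2 had 1 UMI and Ins2 had none in the 7 classes, both below the 50 UMIs set for naming. Insr, the insulin receptor and closest relative of Igf1r, was also highest in endothelial-like cells, at 1.20, but only 1.85 times above the next class (1.16 to 3.00). Igf2r, which clears IGF-2, was led by pericyte-like cells at 0.771. Igfbpl1, a secreted relative of the binding proteins, had 24.0 in neuroblast-like cells, but it was among the markers that named this class and is no result there. Htra1, a secreted protease that cuts binding proteins, was led by astrocyte-like cells at 14.6, which was 8.54 times the level of mature oligodendrocyte-like cells (7.09 to 10.4). The class that led Htra1 was also the one that led Igfbp2 and Igfbp5.

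Downstream of the receptor, Grb14, an adaptor that inhibits insulin receptor signalling, was led by mature oligodendrocyte-like cells at 8.13, which was 6.43 times the endothelial level (4.90 to 8.58). Akt2, an AKT kinase, was led by astrocyte-like cells at 2.17, which was 3.61 times the pericyte-like level (2.10 to 6.73). Gsk3b, a kinase that AKT inhibits, was led by neuroblast-like cells at 5.65, which was 1.99 times the precursor-like level (1.57 to 2.54). Pik3r1, the regulatory subunit of PI3-kinase, was led by microglia-like cells at 3.01 and was at 0.480 in endothelial-like cells. Akt1 at 1.16 and Foxo1, a transcription factor that AKT excludes from the nucleus, at 1.05 were led by endothelial-like cells without differing from the next class beyond counting error.

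**Figure D5:**
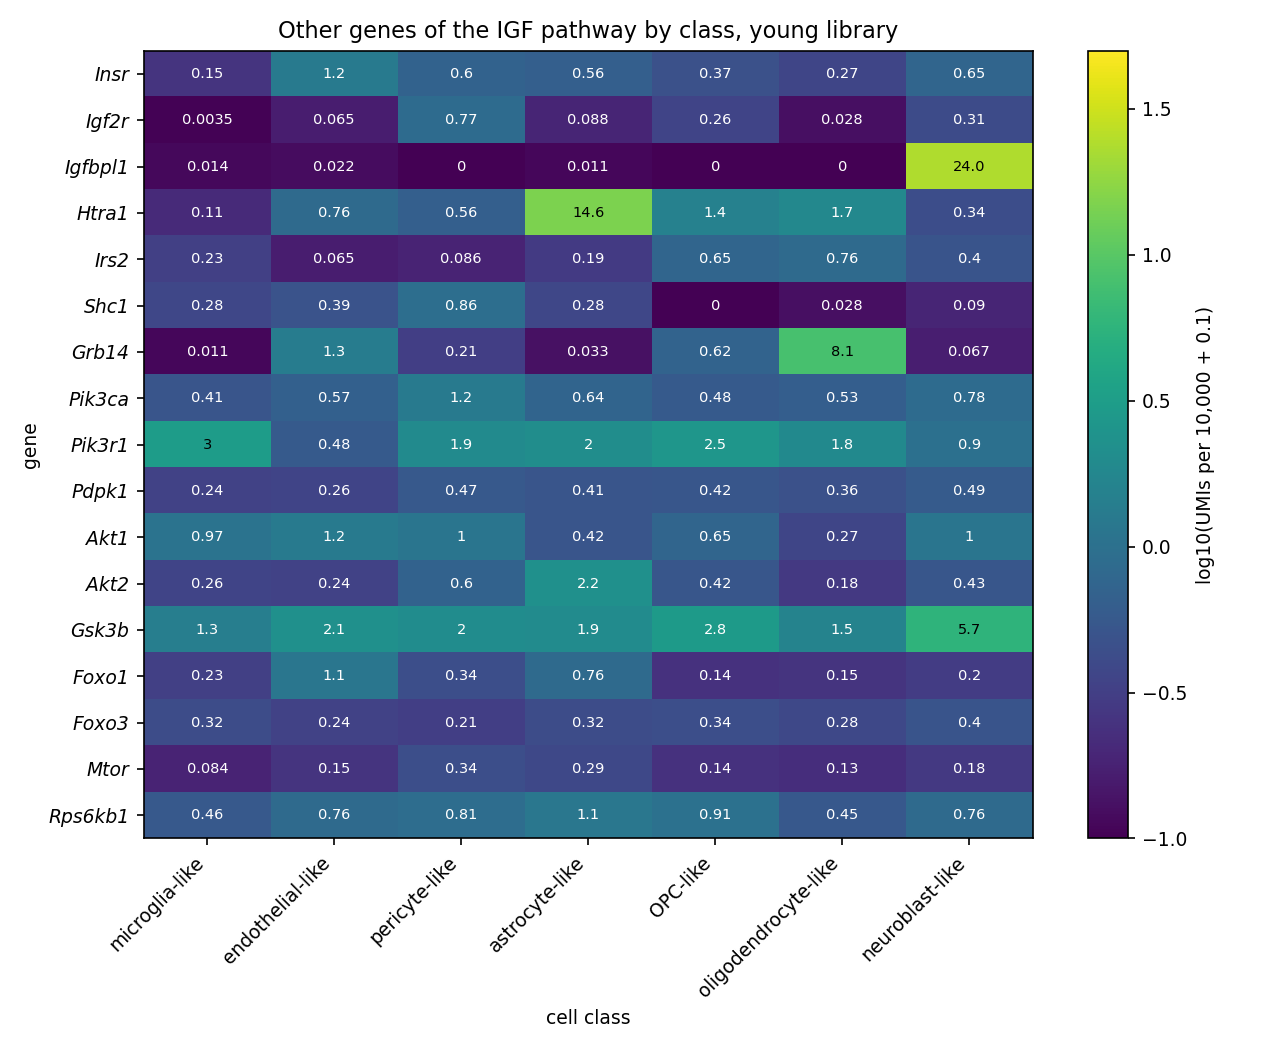
Level of 17 of the 19 other IGF pathway genes (rows) in 7 classes of the young library (columns), as UMIs per 10,000 in each box and as the log10 of that level plus 0.1 in colour. Rows differ in their leading class, with Htra1 at 14.6 in astrocyte-like, Grb14 at 8.13 in mature oligodendrocyte-like and Gsk3b at 5.65 in neuroblast-like cells.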

How the data were processed

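Single-cell RNA was measured in 1 old and 1 young library. Per the submitters' processing notes, Cell Ranger 5.0.0 and the mm10 build were used, while no source used here states the gene annotation, the cell filter or the strand setting. The authors deposited 1 table of both libraries, with cells in rows, on the natural log scale, as ln(1 + UMIs per 10,000). The values show this scale, because undoing the log brings each cell to a sum of 10000. Dividing by the value of 1 UMI gave whole UMIs within 0.01 for 100% of values, and these recovered UMIs were used throughout.

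Cells of both libraries were clustered together in Scanpy 1.11.5 (Python 3.11.15) from 2000 variable genes without the members, with 30 principal components, 15 neighbours and Leiden resolution 1. A cluster was named where at least 3 of a class's markers were seen in 25% of its cells at 4 times the level of other cells. Scrublet marked 23 old (1.61%) and 37 young cells (1.5%) as doublets, which were kept and removed as an alternative. Sub-clusters used resolution 0.5 and were added after the data were seen.

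Members, marker lists and pathway lists were chosen with earlier results of these data known. All members were named, pathway genes were named from 50 UMIs, and the 3 most alike genes per member from 100 UMIs. Ratios have exact conditional binomial 95% intervals. Scripts were checked on simulated data. Alternatives were other resolutions, members among the variable genes, removed doublets, the old library, shared barcodes, equal weight per cell, deeper cells, other pseudocounts, thinning depths and minimum counts. The classes of at least 10 cells and the values without sub-clusters led by genes of another class were added after the data were seen. A few genes are not reported here.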

Additional observations from a re-analysis of the deposited data

How the results depend on the processing

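Under the alternatives tried, 58 of 60 levels and 58 of 66 log2 ratios stayed inside the 95% counting interval of the reported value, and no ratio above counting error changed sign. Several alternatives kept largely the same cells, so that part of this agreement was fixed in advance. Leaving out sub-clusters led by genes of another class put Igf1r in endothelial-like cells at 6.45 rather than 9.22, its log2 ratio to astrocyte-like cells at 2.47 rather than 2.86, and the pericyte-like to endothelial-like log2 ratio of Igfbp7 at 1.10 rather than 1.34. Weighting each cell alike gave 2.46 for the Igf1r ratio, a level of 1.10 rather than 1.48 for Igfbp2 in astrocyte-like cells, and 0.30 rather than 1.00 for the Igfbp5 ratio of astrocyte-like to precursor-like cells. A pseudocount of 1 gave 2.23 for the Igf1r ratio, 0.80 rather than 1.59 for the Igfbp2 ratio, and 269 rather than 731 class-led genes. With no minimum beyond 1 UMI, 1152 genes were class-led. With classes of at least 10 cells the next class for Igf1r was the smooth muscle-like one, at a log2 ratio of 2.64, and the top pair for Igfbp7 was smooth muscle-like over pericyte-like, at 0.14. For Igfbp4 the top pair became perivascular macrophage-like over smooth muscle-like, at 1.81. It was counted as inside the interval of another pair, microglia-like over pericyte-like cells (-1.25 to 2.12). At a finer resolution of the sub-clusters the highest to lowest ratio of Igf1r within the endothelium was 4.85 rather than 2.20. The causes of these shifts were not tested.

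Detection shares moved with depth, and 13 of 28 left their interval. The lists of most alike genes kept at least 2 of 3 names in 6 of 12 alternatives. Resolution 2 gave no perivascular macrophage-like class and resolution 0.5 no smooth muscle-like class, so the values of Igf1 and Igfbp4 in the first and of Igfbp7 in the second have no counterpart there. Levels in those 10 and 14 cells rest on the fewest cells, and Igf1 on 12 UMIs. No paired analysis was possible because each age has 1 library.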
